A study of Mus musculus with 6 samples.

Results

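The genes of the dividing cell were followed in bone RNA after blood removal. The set was given as a fixed list of 44 genes, 20 that act in S-phase (the stage in which DNA is copied) and 24 that act in G2 and mitosis (G2/M), out of 55421 genes in the count table. The names were matched to the deposited gene symbols. All 44 were found and all 44 passed the filter on low counts that left 18838 genes for testing. The samples are 6 femur bone samples of C57BL/6 mice aged 12 weeks with the genotype WT, 3 labelled Control and 3 labelled Phlebotomy. The labels used here give neither the blood volume removed nor the time between phlebotomy and sampling. RNA came from bone fractions enriched for osteocytes, the long-lived cells embedded in bone matrix, and such fractions can still carry marrow cells. The deposited columns show only an initial and the number 1, 2 or 4, so that P was read as phlebotomy and N as control by elimination, and libraries are named by that number.

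A cell that divides first licenses its replication origins by loading the MCM helicase, then copies its DNA with deoxynucleotides made on demand, and then condenses and separates its chromosomes. Most of these genes are transcribed only around the stage in which their products act: E2F factors drive the S-phase genes, and complexes built on the MuvB core, which bind the CHR element and meet NF-Y at CCAAT boxes, drive the G2/M genes. Osteocytes are non-dividing cells, while the erythroblasts and myeloid progenitors of femoral marrow divide rapidly. In bulk RNA, fewer cells of a type and less RNA per cell cannot be told apart, and this holds for every level below.

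Libraries held 11219243 to 19015588 gene counts, and 3 counts corresponded to 0.164 to 0.296 CPM (counts scaled to the size of the library). Levels are CPM scaled by TMM, a factor that corrects for the makeup of each library. The osteocyte markers were present in all libraries, with 12 of 12 listed genes above 0 and a summed level of 15218 to 52240 CPM. Erythroid markers (20 of 20 genes above 0 in all libraries) summed to 14400 to 31813 CPM and neutrophil progenitor markers (12 of 12) to 10515 to 25534 CPM. Control 1 had the fewest counts, the lowest erythroid and neutrophil sums and the highest osteocyte and osteoblast sums.

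After phlebotomy 42 of the 44 genes had a higher fitted level and 2 (Cdt1 and Kif23) a lower one, against 49.8% higher and 50.2% lower among all genes tested. None passed the test: edgeR's quasi-likelihood test with Benjamini-Hochberg adjustment called 0 of 44 at an adjusted p under 0.05, and called 0.0159% of all genes higher and 0% lower. At an unadjusted p under 0.05, edgeR placed 17 of the 44 higher (11 S-phase and 6 G2/M) and 0 lower, against 7.01% higher and 9.42% lower among all genes. DESeq2 called 3 of the 44 higher, namely Tyms, Ccne2 and Ccnb1, where it called 0.398% of all genes higher and 1.11% lower. The same 3 genes were called by edgeR when phlebotomy 2 was left out, and 1.75% of the genes then tested were called higher and 2.99% lower. In 11 genes every phlebotomy library lay above every control library, against 10.1% of all genes. Cdt1 alone had all phlebotomy libraries below all controls, against 11.2% of all genes. With no filter on low counts, edgeR called 1 of the 44 higher (Tyms), where 0.357% of the genes then tested were called higher and 0.884% lower. The 11 were 10 of the 20 S-phase genes and 1 of the 24 G2/M genes. The difference between the phases was not tested.

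The median log2 fold change (phlebotomy minus control) was 0.43 for the 20 S-phase genes, with a range of -0.27 to 0.77, and 0.32 for the 24 G2/M genes, with a range of -0.05 to 0.64. Over all genes tested it was -0.0028. The heat map of single libraries shows that the 2 phases shared much of their pattern: control 1 was low and phlebotomy 1 and 4 were high. It also shows phlebotomy 2 closer to the controls than phlebotomy 1 and 4. Phlebotomy 2 was inside the control range for 22 of 24 G2/M genes and for 8 of 20 S-phase genes.

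**Figure D1:**
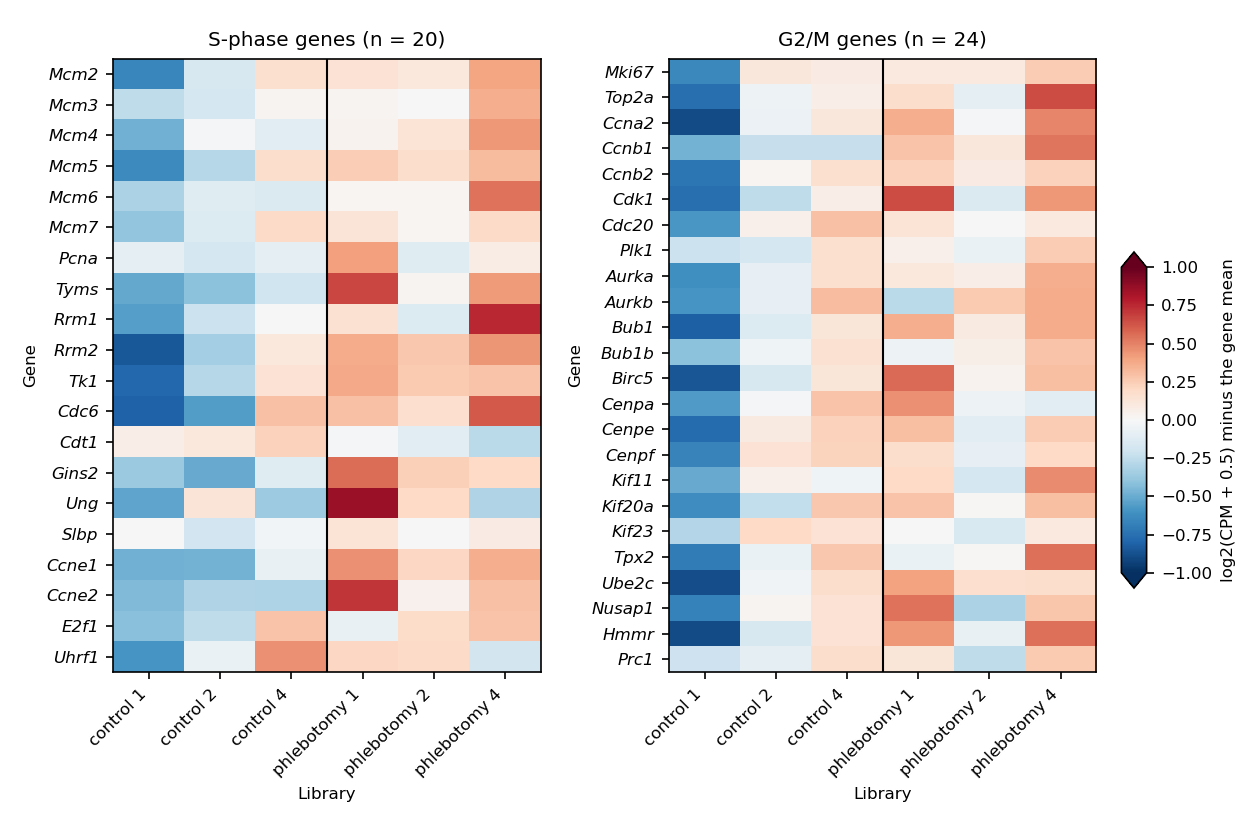
Heat map of the 20 S-phase genes (left) and 24 G2/M genes (right), with 1 column per library and 1 row per gene. Colour gives log2(CPM + 0.5) minus the gene's mean over the 6 libraries, red above and blue below, and the black line separates control from phlebotomy. Control 1 is the lowest library for 16 S-phase and 23 G2/M genes.

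Promoter sequences are described by the motifs they held. These motifs are known features of the 2 gene classes, as given above, so their shares are a description and not a test. RefSeq promoters (build GRCm38.p6, 250 bases before to 50 after the start, 300 bases in all) were matched for 37 of the 44 genes, 3 of them with 2 promoters. An E2F-type motif (TTCCCGC, the form TTCGCGC, the form TTGCCGC or the form TTGGCGC, on either strand) was found in 11 of 19 S-phase promoters (57.9%) and in 4 of 21 G2/M promoters (19%), against 9.57% of all 32851 promoters. A CHR-type motif (TTTGAA or TTTAAA, on either strand) was found in 6 of 19 S-phase promoters (31.6%) and 19 of 21 G2/M promoters (90.5%), against 27.6% of all. The CCAAT box (CCAAT, on either strand) stood in 63.2% of S-phase and 90.5% of G2/M promoters, against 37.4% of all, and a CHR-type motif together with a CCAAT box in 21.1%, 85.7% and 10.7%. The letters of the E2F-type motif can run into a CCAAT box, and in 1 of the 4 G2/M promoters every E2F-type match did so, against 0 of 11 S-phase promoters. A match is a description of the letters and not a measured binding site.

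**Figure D2:**
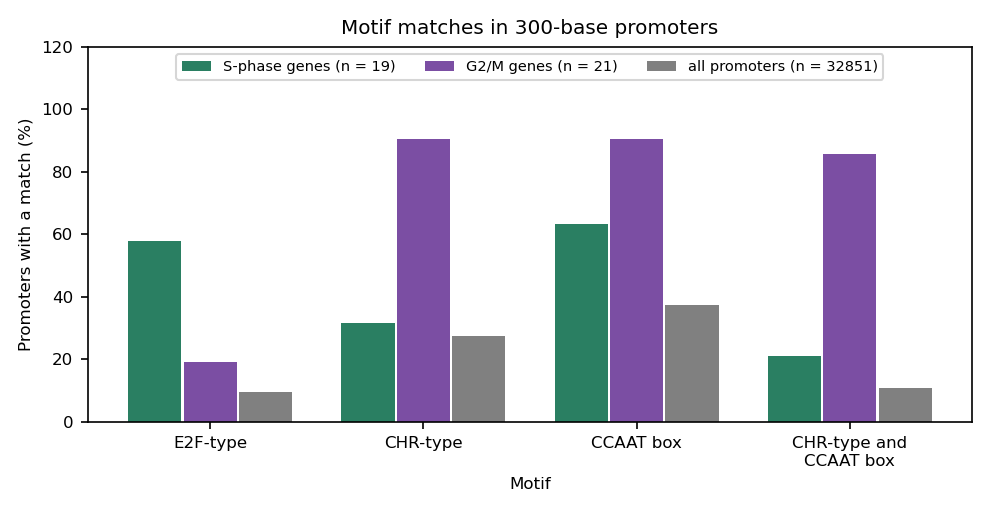
Share of 300-base promoters with at least 1 match to each motif, in percent, for the S-phase genes (19 promoters), the G2/M genes (21 promoters) and all 32851 promoters. E2F-type matches are most frequent in the S-phase promoters at 57.9%, and CHR-type matches in the G2/M promoters at 90.5%.

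Rrm2 and Cdc6 are printed as S-phase promoters that hold an E2F-type match, and Ccnb1 and Cdk1 as G2/M promoters that hold both a CHR-type motif and CCAAT boxes. They are the 2 genes of each phase with the smallest edgeR p among genes with a single matched promoter of that kind. Tyms and Ccne1 had a smaller edgeR p than Rrm2, but their matched promoters held no E2F-type match. Capitals mark E2F-type matches in the first pair, and CHR-type matches and CCAAT boxes (ATTGG where the box lies on the other strand) in the second pair. Rrm2 lies at chr12:24708004-24708303 on the plus strand, with its match beginning 235 bases before the start. Cdc6 lies at chr11:98907901-98908200 on the plus strand, with its match 138 bases before the start. Ccnb1 lies at chr13:100786437-100786736 on the minus strand, with CCAAT boxes 99 and 67 bases and a CHR-type TTTAAA 42 bases before the start. Cdk1 lies at chr10:69352863-69353162 on the minus strand, with CHR-type TTTGAA 71 and 15 bases and CCAAT boxes 208, 80 and 48 bases before the start. Not in capitals are a TTTAAA and a CCAAT of Rrm2, and the E2F-type matches of Ccnb1 (1, overlapping a CCAAT box) and Cdk1 (2).
Rrm2: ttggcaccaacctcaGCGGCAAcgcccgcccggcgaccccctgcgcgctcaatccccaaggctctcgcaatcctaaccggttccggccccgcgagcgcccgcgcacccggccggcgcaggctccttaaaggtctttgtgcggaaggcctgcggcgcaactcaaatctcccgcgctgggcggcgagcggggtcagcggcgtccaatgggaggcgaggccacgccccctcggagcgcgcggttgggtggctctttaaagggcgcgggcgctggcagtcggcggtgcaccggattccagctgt
Cdc6: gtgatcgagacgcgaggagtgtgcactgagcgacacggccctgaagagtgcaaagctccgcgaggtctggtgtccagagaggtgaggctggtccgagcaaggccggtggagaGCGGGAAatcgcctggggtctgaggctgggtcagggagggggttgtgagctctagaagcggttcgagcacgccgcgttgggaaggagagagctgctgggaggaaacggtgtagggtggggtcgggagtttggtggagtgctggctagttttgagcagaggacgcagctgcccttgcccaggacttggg
Ccnb1: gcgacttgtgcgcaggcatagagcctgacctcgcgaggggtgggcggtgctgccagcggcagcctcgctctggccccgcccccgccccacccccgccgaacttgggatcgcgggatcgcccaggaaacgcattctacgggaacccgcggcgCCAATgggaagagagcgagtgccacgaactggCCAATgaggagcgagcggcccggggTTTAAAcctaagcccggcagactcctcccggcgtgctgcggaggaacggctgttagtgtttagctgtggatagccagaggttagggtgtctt
Cdk1: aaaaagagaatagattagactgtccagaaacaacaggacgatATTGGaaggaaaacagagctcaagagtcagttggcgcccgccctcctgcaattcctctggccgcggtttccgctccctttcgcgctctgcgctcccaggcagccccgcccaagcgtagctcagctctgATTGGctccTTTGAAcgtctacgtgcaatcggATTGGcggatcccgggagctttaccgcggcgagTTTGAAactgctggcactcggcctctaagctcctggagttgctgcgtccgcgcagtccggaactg

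The enzymes that supply deoxynucleotides were the S-phase group in which 4 of 4 genes were higher at an unadjusted p under 0.05 in edgeR, against 7.01% of all genes, and their median was 0.62 on the log2 scale. Thymidylate synthase, which makes the thymidine nucleotide dTMP, is encoded by Tyms (ENSMUSG00000025747, GRCm38, chromosome 5, 30058202 to 30073617). Tyms stood at 31.3, 33.6 and 39.1 CPM in control 1, 2 and 4 and at 71.5, 45.8 and 60.5 CPM in phlebotomy 1, 2 and 4. All phlebotomy libraries were above all controls, and phlebotomy 2 was the closest to them. The fold was 1.71 and the log2 fold change 0.77 ± 0.19 (SE), with an edgeR adjusted p of 0.145, a DESeq2 adjusted p of 0.0217 and an edgeR adjusted p of 0.0283 without phlebotomy 2. A processed copy, Tyms-ps, held 255 counts in all libraries together against 4367 for Tyms, so few reads of the pair were assigned to the copy.

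Ribonucleotide reductase turns ribonucleotides into deoxyribonucleotides; Rrm2 encodes its small subunit, which limits activity in dividing cells, and Rrm1 the large one. Rrm2, whose promoter is shown above, had 83.9, 120 and 163 CPM in the controls and 196, 183 and 206 CPM after phlebotomy. The groups did not overlap, and the controls were spread over a wider range (122 ± 39.6 CPM, SD, n = 3) than the phlebotomy libraries (195 ± 11.5 CPM). Its log2 fold change was 0.67 ± 0.21, with an edgeR adjusted p of 0.191. Rrm1 had 89.6, 113 and 131 CPM in the controls and 146, 119 and 222 CPM after phlebotomy, so that phlebotomy 2 lay inside the control range (log2 fold change 0.54, edgeR adjusted p = 0.254). Per kilobase of exon, Rrm2 was 4.28 ± 0.61 times the level of Rrm1 in controls and 5.03 ± 1.23 times after phlebotomy, ranges that overlapped. The size of this ratio depends on the length used. Per kilobase of the longest transcript, the control means were 55.7 CPM for Rrm2 and 20.3 CPM for Rrm1, a smaller ratio. Tk1, the thymidine kinase that salvages thymidine, had 13.7, 19.7 and 26.6 CPM in controls and 31.3, 29.0 and 29.5 CPM after phlebotomy, again with no overlap (log2 fold change 0.58 ± 0.22, edgeR adjusted p = 0.237).

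Cyclin E, with its partner Cdk2, drives the entry into S-phase, and both of its genes were higher in every phlebotomy library than in any control. Ccne2 (ENSMUSG00000028212, GRCm38, chromosome 4, 11191351 to 11204779) had 46.5, 51.3 and 51.1 CPM in controls and 104, 65.3 and 77.6 CPM after phlebotomy. The controls were close together (49.6 ± 2.67 CPM) and phlebotomy 1 stood highest. Its log2 fold change was 0.73 ± 0.19 (edgeR adjusted p = 0.149, DESeq2 adjusted p = 0.0269, and edgeR adjusted p = 0.0333 without phlebotomy 2). Exons of Ccne2 overlap Ints8 on the opposite strand, whose total count was 5319 against 6142 for Ccne2 and whose log2 fold change was -0.06. The library kit does not mark strand, so reads of the shared stretch cannot be told apart.

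Ccne1 had 10.8, 10.9 and 14.6 CPM in controls and 21.3, 17.8 and 19.8 CPM after phlebotomy. Its log2 fold change was 0.69 ± 0.20 (edgeR adjusted p = 0.172). The 2 cyclin E genes stood in the same proportion in both groups: per kilobase of exon, Ccne2 was 3.17 ± 0.46 times Ccne1 in controls and 3.17 ± 0.50 times after phlebotomy. E2f1, which encodes an activating factor of this gene class, had 13.1, 14.8 and 21.7 CPM in controls and 16.8, 20.1 and 21.7 CPM after phlebotomy, with overlapping groups (log2 fold change 0.24, edgeR adjusted p = 0.602).

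The 6 subunits of the MCM2-7 helicase, the ring that unwinds DNA at the fork, all had positive log2 fold changes, from 0.21 (Mcm7) to 0.46 (Mcm5), with a median of 0.40. Of the 6, 3 were higher at an unadjusted p under 0.05 in edgeR (7.01% of all genes), and the same 3, Mcm4, Mcm5 and Mcm6, had groups that did not overlap (10.1% of all genes). Mcm5 had 53.6, 68.5 and 94.6 CPM in controls and 99.4, 94.7 and 104 CPM after phlebotomy, so that control 4 and phlebotomy 2 nearly met (edgeR adjusted p = 0.268). Mcm6 had 121, 138 and 136 CPM in controls and 152, 153 and 219 CPM after phlebotomy, with phlebotomy 4 well above the other libraries (log2 fold change 0.41). Mcm4 ran from 47.5 to 65.5 CPM in controls and from 67.9 to 89.9 CPM after phlebotomy. Mcm2, Mcm3 and Mcm7 had groups that overlapped, with log2 fold changes of 0.40, 0.27 and 0.21. The complex holds 1 copy of each subunit, but the control levels per kilobase of exon ran from 8.09 (Mcm2) to 28.2 (Mcm6) CPM. Over the longest transcript in place of all exons, they ran from 16.1 to 30.2 CPM per kilobase, so the order among the lower subunits depends on the length used.

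Origin licensing and firing held genes on both sides of 0. Cdc6 and Cdt1 together load the MCM ring, and Gins2 is a subunit of GINS, which activates it. Gins2 had 6.21, 5.63 and 7.46 CPM in controls and 12.3, 9.71 and 9.48 CPM after phlebotomy, without overlap (log2 fold change 0.71 ± 0.23, edgeR adjusted p = 0.199). Gins2 shares exon sequence with Gse1 on the opposite strand (1705 counts against 781), whose log2 fold change was -0.84. Cdc6 had 12.5, 15.0 and 27.6 CPM in controls and 27.6, 25.1 and 34.4 CPM after phlebotomy, and control 4 lay within the phlebotomy range (log2 fold change 0.66 ± 0.26, edgeR adjusted p = 0.247).

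Cdt1 (ENSMUSG00000006585, GRCm38, chromosome 8, 122568015 to 122573554) went the other way and was the sole S-phase gene with a negative log2 fold change. It had 35.9, 36.8 and 40.1 CPM in controls and 33.7, 31.7 and 28.3 CPM after phlebotomy. Every phlebotomy library was below every control, but the size was small (log2 fold change -0.27 ± 0.17) and the edgeR adjusted p was 0.442. Over 16 alternative ways of processing it kept its sign, but the log2 fold change ran from -0.35 to -0.076. The ratio of Cdc6 to Cdt1 per kilobase of exon was 0.210, 0.245 and 0.412 in controls and 0.491, 0.476 and 0.731 after phlebotomy. These groups did not overlap, and the pair was chosen with the values known.

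The remaining S-phase genes differed less or were too variable to separate. Pcna, the sliding clamp of the polymerases, had the highest control level per kilobase of the 44 genes (65.4 CPM), and its level was 160, 151 and 160 CPM in controls and 226, 157 and 180 CPM after phlebotomy. Phlebotomy 2 lay within the narrow control range, and the log2 fold change was 0.26 (edgeR adjusted p = 0.467). A processed copy, Pcna-ps2, held 4111 counts against 15807 for Pcna, so the split of reads between them is uncertain. Slbp, which binds histone mRNA, had groups that did not overlap, but control 1 (175.7 CPM) and phlebotomy 2 (176.0 CPM) were almost level (log2 fold change 0.15). Ung, a uracil-DNA glycosylase of base excision repair, was the lowest of the 44 per kilobase at 0.332 CPM in controls, rested on as few as 14 counts in a library, and ranged from 1.38 to 4.43 CPM over the 6 libraries. Uhrf1, which guides maintenance DNA methylation, had 28.3, 40.9 and 59.0 CPM in controls and 49.5, 49.1 and 37.7 CPM after phlebotomy, with all phlebotomy libraries inside the control range (log2 fold change 0.08).

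**Figure D3:**
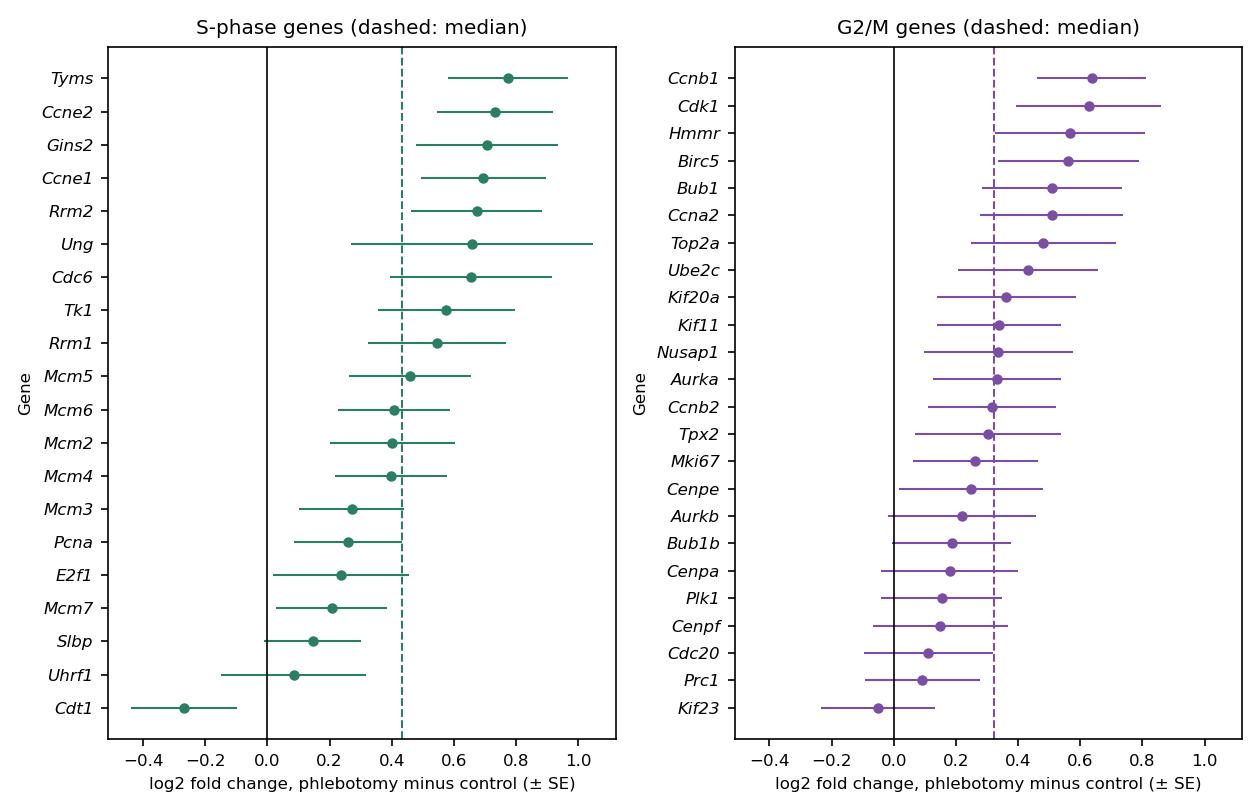
log2 fold change (phlebotomy minus control) of each S-phase gene (left) and G2/M gene (right) from edgeR with all 6 libraries; bars are ± 1 SE and the dashed line is the median of the phase. The S-phase genes run from -0.27 (Cdt1) to 0.77 (Tyms) and the G2/M genes from -0.05 (Kif23) to 0.64 (Ccnb1).

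Among the G2/M genes, cyclins and Cdk1 included the 2 highest values. Over these 4 genes the median was 0.57 on the log2 scale, and 3 of them were higher at an unadjusted p under 0.05 in edgeR, against 7.01% of all genes. Cyclin B1 with Cdk1 forms the kinase that starts mitosis. Ccnb1 (ENSMUSG00000041431, GRCm38, chromosome 13, 100778650 to 100786570), whose promoter is shown above, had 30.8, 36.5 and 36.5 CPM in controls and 52.5, 46.5 and 62.4 CPM after phlebotomy. It was the single G2/M gene in which the groups did not overlap. The fold was 1.55 and the log2 fold change 0.64 ± 0.18, with an edgeR adjusted p of 0.167, a DESeq2 adjusted p of 0.0450 and an edgeR adjusted p of 0.0481 without phlebotomy 2. The processed copy Ccnb1-ps held 260 counts against 4100, with a log2 fold change of 0.66.

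Cdk1 had 37.5, 53.3 and 66.5 CPM in controls and 100, 57.3 and 86.0 CPM after phlebotomy. Phlebotomy 2 was below control 4, and the log2 fold change was 0.63 ± 0.23 (edgeR adjusted p = 0.228). Ccna2, the cyclin of S-phase and G2, had 51.3, 91.9 and 103 CPM in controls and 123, 94.7 and 134 CPM after phlebotomy (log2 fold change 0.51, edgeR adjusted p = 0.295). Ccnb2 had 42.3, 71.1 and 78.2 CPM in controls and 82.3, 74.2 and 82.4 CPM after phlebotomy (log2 fold change 0.32). In Cdk1, Ccna2 and Ccnb2 alike, control 1 was the lowest library and phlebotomy 2 lay between control 2 and control 4. Per kilobase of exon, Ccnb2 was 5.02 ± 1.10 times Ccnb1 in controls and 4.12 ± 0.42 times after phlebotomy, with overlapping ranges. Per kilobase of the longest transcript the ratio was smaller, with control means of 41.7 CPM for Ccnb2 and 13.9 CPM for Ccnb1.

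Mki67 and Top2a are commonly read as markers of dividing cells. Mki67, which coats mitotic chromosomes, had 137, 231 and 226 CPM in controls and 229, 230 and 255 CPM after phlebotomy. Control 1 alone was low, and the other 5 libraries lay between 226 and 255 CPM. The log2 fold change was 0.26 ± 0.20 (edgeR adjusted p = 0.524) and 0.04 without control 1. Top2a, the topoisomerase that untangles sister DNA, had 108, 176 and 191 CPM in controls and 205, 171 and 286 CPM after phlebotomy, with phlebotomy 2 below control 2 (log2 fold change 0.48, edgeR adjusted p = 0.32).

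The chromosomal passenger complex and the spindle checkpoint each held 1 gene of 2 that was higher at an unadjusted p under 0.05 in edgeR, against 7.01% of all genes. Birc5 (survivin, a passenger subunit) had 42.6, 69.1 and 84.2 CPM in controls and 115, 79.2 and 95.5 CPM after phlebotomy (log2 fold change 0.56, edgeR adjusted p = 0.253). Bub1, a checkpoint kinase, had 15.1, 24.5 and 29.4 CPM in controls and 34.9, 28.7 and 35.0 CPM after phlebotomy (log2 fold change 0.51, edgeR adjusted p = 0.284). In both genes phlebotomy 2 was below control 4 and phlebotomy 1 and 4 were above all controls. Their partners were closer to 0: Aurkb, the passenger kinase, had a log2 fold change of 0.22, and Bub1b, the checkpoint partner, 0.19.

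The mitotic kinases Plk1 and Aurka had log2 fold changes of 0.15 and 0.33, with groups that overlapped. Per kilobase of exon, Aurka was 1.58 ± 0.090 times Aurkb in controls and 1.74 ± 0.36 times after phlebotomy. The centromere and kinetochore genes Cenpa, Cenpe and Cenpf were the G2/M group with the lowest median among groups of 3 or more, at 0.18, and 0 of 3 reached an unadjusted p under 0.05 in edgeR. Ube2c and Cdc20, which work with the anaphase-promoting complex, had log2 fold changes of 0.43 and 0.11. Cdc20 had 31.4, 49.0 and 58.0 CPM in controls and 52.0, 47.4 and 50.5 CPM after phlebotomy, so the phlebotomy libraries lay inside the control range.

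The kinesin motors and spindle proteins spread widely. Kif23, a motor of the cleavage furrow midzone, was the single G2/M gene with a negative value (log2 fold change -0.05), with 31.1, 43.8 and 42.3 CPM in controls and 38.2, 34.3 and 40.8 CPM after phlebotomy. Kif11 and Kif20a had log2 fold changes of 0.34 and 0.36. Hmmr, which binds spindle microtubules, was the spindle gene with the highest value: 30.1, 50.3 and 62.2 CPM in controls and 76.2, 53.2 and 82.4 CPM after phlebotomy (log2 fold change 0.57, edgeR adjusted p = 0.268). Nusap1, Tpx2 and Prc1 had log2 fold changes of 0.34, 0.30 and 0.09. Nusap1 stood at 73.0 CPM in phlebotomy 2, below 92.7 and 101 CPM in control 2 and 4, and at 132 CPM in phlebotomy 1.

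The summed levels show how single libraries stood. Summed over the 20 S-phase genes, the controls had 1099, 1240 and 1451 CPM and the phlebotomy libraries 1692, 1481 and 1805 CPM, a mean of 1263 ± 177 against 1659 ± 164 (SD, n = 3 each). The groups did not overlap, with phlebotomy 2 just above control 4. Summed over the 24 G2/M genes, the controls had 1009, 1577 and 1759 CPM and the phlebotomy libraries 1929, 1577 and 2045 CPM, a mean of 1448 ± 391 against 1850 ± 244. Here phlebotomy 2 equalled control 2 to the nearest CPM and lay below control 4. Phlebotomy 2 was inside the control range for 22 of 24 G2/M genes and for 8 of 20 S-phase genes, and was above all controls for 1 and 11 of them. Phlebotomy 4 was above all controls for 19 G2/M and 15 S-phase genes, and phlebotomy 1 for 14 and 13. The ratio of the G2/M sum to the S-phase sum was 0.918, 1.27 and 1.21 in controls and 1.14, 1.06 and 1.13 after phlebotomy, so control 1 was low in G2/M transcripts relative to S-phase transcripts too. The median coefficient of variation among controls was 29.0% for G2/M and 18.1% for S-phase genes, and among phlebotomy libraries 14.9% and 14.7%.

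Without control 1, the median log2 fold change was 0.30 for the S-phase genes and 0.093 for the G2/M genes. The number of genes above 0 then stood at 18 of 20 and 18 of 24, against 51.4% of all genes, and the number higher at an unadjusted p under 0.05 in edgeR at 5 and 1, against 4.91% of all genes (5.73% were lower). Other libraries moved these last counts as well. From 11, the S-phase count went to 4 without control 2 and 7 without phlebotomy 4. From 6, the G2/M count went to 2 without control 2, 10 without control 4, and 1 without phlebotomy 1 or without phlebotomy 4. The S-phase genes also stood at 0.30 without phlebotomy 4, and at 0.44 to 0.56 without any of the other 4 libraries. The G2/M genes stood at 0.24 without phlebotomy 4 and at 0.35 to 0.46 without any of the other 4.

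**Figure D4:**
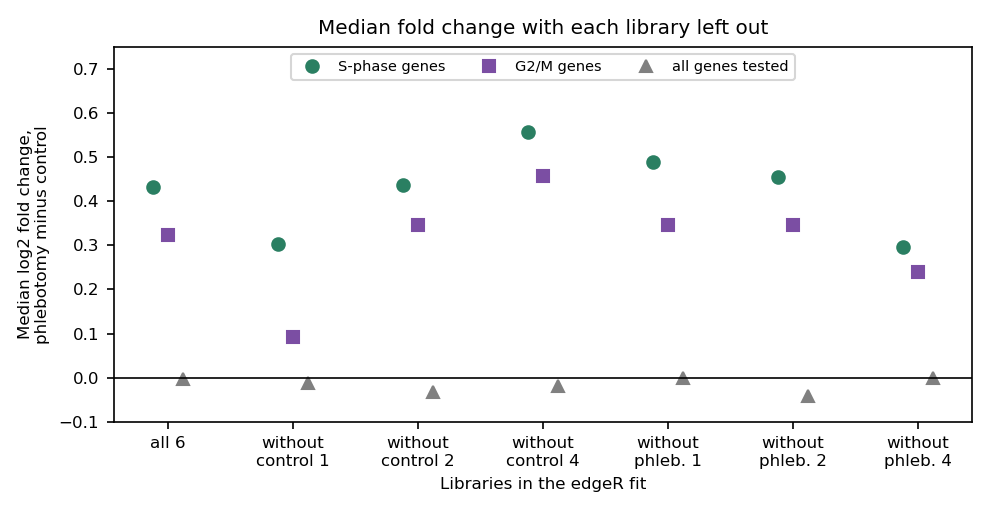
Median log2 fold change (phlebotomy minus control, edgeR) of the S-phase genes, the G2/M genes and all genes tested, with all 6 libraries and with each library left out in turn. The G2/M median goes from 0.32 to 0.093 without control 1, while the S-phase median is 0.30 at its lowest and that of all genes stays close to 0.

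Markers of marrow and bone cells differed between the same libraries. The erythroid sum was 14400, 25322 and 31353 CPM in controls and 31813, 24600 and 21965 CPM after phlebotomy, with groups that overlapped. Of the 20 genes 14 were above 0, and their median was 0.27 on the log2 scale. That median was -0.018 without control 1. edgeR called 0 of the 20, against 0.0159% of all genes higher and 0% lower. Tfrc, the transferrin receptor, and Car1, carbonic anhydrase 1 of red cells, had log2 fold changes of 0.79 and 0.83. Their edgeR adjusted p were 0.167 and 0.139 and their DESeq2 adjusted p 0.0312 and 0.0118. They were the only DESeq2 calls of the list, against 0.398% of all genes called higher and 1.11% lower. The neutrophil progenitor sum was 10515, 18636 and 25534 CPM in controls and 15879, 18625 and 13170 CPM after phlebotomy. Its 12 genes lay 6 above and 6 below 0 (median 0.10). The list also held Camp, Ltf, Ngp and Chil3, which mark later stages of the lineage, so the sum is not that of dividing progenitors alone. edgeR called 0 of the 12 and DESeq2 called 3 higher, with the same shares of all genes as above. The protease genes Prtn3 and Ctsg had log2 fold changes of 1.18 and 1.25 (edgeR adjusted p = 0.139 each, DESeq2 adjusted p = 0.0026 and 0.0020). Gfi1, a factor of the same lineage, had -0.49 (edgeR adjusted p = 0.219), with all phlebotomy libraries below all controls. Of the osteocyte markers 10 of 12 were below 0 (median -0.62), and of the osteoblast markers 10 of 10 (median -0.50), against 50.2% of all genes. edgeR called 0 in both lists, and DESeq2 called 2 osteocyte genes and 1 osteoblast gene lower (1.11% of all genes). Without phlebotomy 2, edgeR called 2 osteocyte and 7 osteoblast genes lower, against 2.99% of the genes then tested.

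The marker sums rest on a few abundant genes. The 4 globin genes made up 81.8% to 88.3% of the erythroid sum, and the list was split there after its values were seen. The globin sum was 12449, 22149 and 27564 CPM in controls and 28088, 21177 and 17960 CPM after phlebotomy. The other 16 erythroid genes summed to 1952, 3174 and 3789 CPM in controls and 3725, 3423 and 4004 CPM after phlebotomy. Phlebotomy 4, which had the highest S-phase and G2/M sums, was thus the highest library for the 16 genes and below control 2 and control 4 for globin. Of the 20 erythroid genes, 8 were highest in control 4, 6 in phlebotomy 4, 4 in phlebotomy 1 and 2 in phlebotomy 2. Control 1 was lowest in all of these sums. The part of cell makeup in the division genes was not tested.

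**Figure D5:**
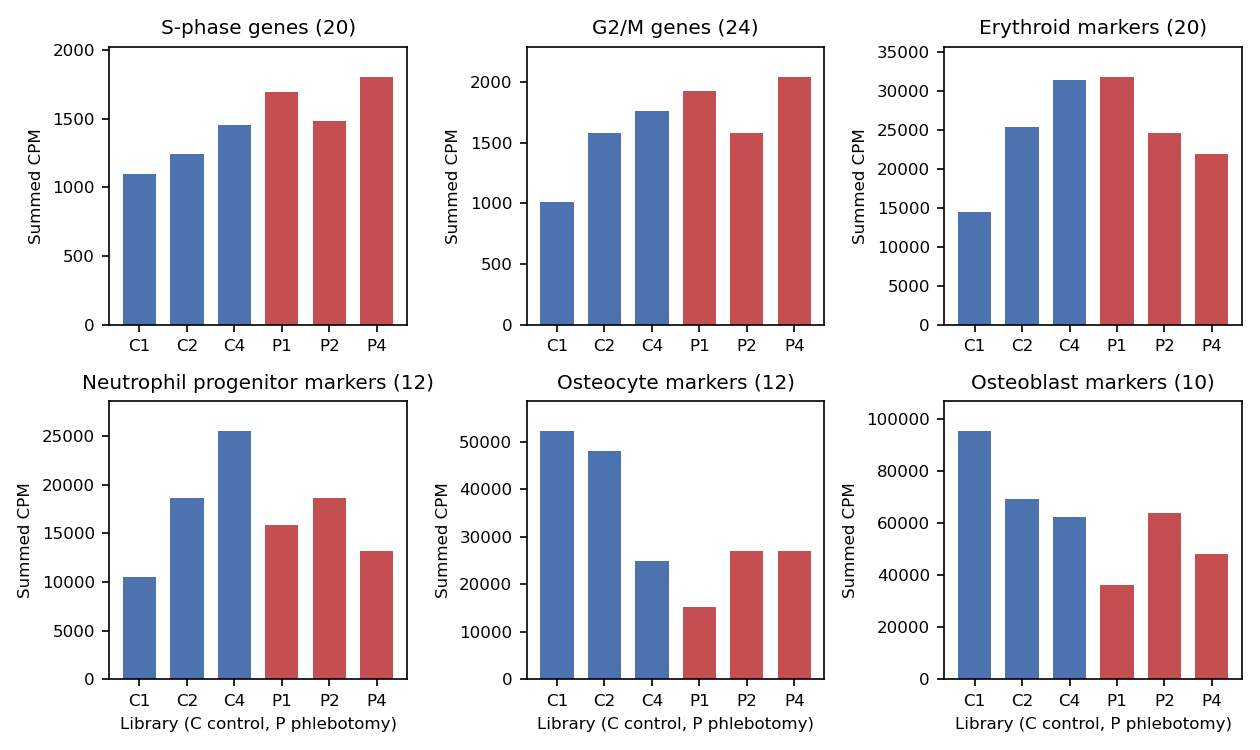
Summed CPM per library of the S-phase genes, the G2/M genes and 4 lists of cell type markers (C, control; P, phlebotomy; the number is that of the deposited column). The S-phase sums of the groups do not overlap (1099 to 1451 against 1481 to 1805 CPM), the G2/M sums do, and control 1 is lowest in the erythroid and neutrophil lists and highest in the osteocyte and osteoblast lists.

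Further genes of the same pathways were read from lists that do not include the 44. Of 42 other replication fork and origin genes, 38 were above 0, and their median was 0.43 on the log2 scale, as for the S-phase genes. edgeR called 0 of them and placed 21 higher and 0 lower at an unadjusted p under 0.05, against 7.01% and 9.42% of all genes. The phlebotomy libraries were all above the controls for 13 (10.1% of all genes), and the DESeq2 calls numbered 2, both higher (0.398% of all genes). Gins1, another GINS subunit, had 4.34, 4.86 and 7.80 CPM in controls and 16.4, 10.4 and 10.9 CPM after phlebotomy (log2 fold change 1.14 ± 0.27, edgeR adjusted p = 0.139, DESeq2 adjusted p = 0.0135). Its groups did not overlap, as was the case for Gins2. Orc5, of the origin recognition complex, and Rfc2, of the clamp loader, had log2 fold changes of 0.70 and 0.61.

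Of 49 other mitotic genes, 38 were above 0 with a median of 0.24, and 8 had all phlebotomy libraries above the controls (10.1% of all genes). edgeR called 0 and placed 11 higher and 0 lower at an unadjusted p under 0.05 (7.01% and 9.42% of all genes). The single DESeq2 call (0.398% of all genes higher) was Nuf2, of the NDC80 kinetochore complex, with 15.6, 24.6 and 23.3 CPM in controls and 46.7, 25.2 and 44.2 CPM after phlebotomy. Phlebotomy 2 was again close to control 2 (log2 fold change 0.87, edgeR adjusted p = 0.169, DESeq2 adjusted p = 0.0400). Spc24, of the same complex, and the condensin genes Ncapg and Smc2 had log2 fold changes of 0.66, 0.65 and 0.61. The median of this list without control 1 was 0.070, and that of the replication list 0.33.

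Regulators of the cycle had values on both sides of 0, and edgeR called 0 of them. The list of E2F, MYB and FOXM1 factors (17 genes) also held their partners, Myc genes and subunits of the MuvB core. Of the 17, 6 were above 0 and 11 below (median -0.12). At an unadjusted p under 0.05 edgeR placed 1 higher and 1 lower, against 7.01% and 9.42% of all genes. Myc had 266, 215 and 240 CPM in controls and 150, 165 and 156 CPM after phlebotomy, all below the controls (log2 fold change -0.61 ± 0.16, edgeR adjusted p = 0.16, DESeq2 adjusted p = 0.0287). Foxm1, a factor of the G2/M programme, had 15.8, 20.9 and 19.2 CPM in controls and 12.3, 15.9 and 13.9 CPM after phlebotomy (log2 fold change -0.41, edgeR adjusted p = 0.32). Tfdp1, the E2F partner, had a log2 fold change of 0.38.

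The G1 cyclins and kinases (9 of 10 tested) had a median of 0.05, with Cdk4 at 0.32, Ccnd2 at -0.18 and Cdk7 at -0.12. Ccnh, the cyclin of the CDK-activating kinase, had 27.1, 23.1 and 28.6 CPM in controls and 35.0, 32.3 and 37.7 CPM after phlebotomy, without overlap (log2 fold change 0.42, edgeR adjusted p = 0.267). Among CDK inhibitors and pocket proteins (10 of 11 tested, median 0.09), members lay on both sides of 0, with 2 higher and 2 lower at an unadjusted p under 0.05 in edgeR (7.01% and 9.42% of all genes). Cdkn3, a phosphatase that acts on CDKs, had 14.1, 23.3 and 30.8 CPM in controls and 46.7, 33.7 and 32.1 CPM after phlebotomy. Its groups did not overlap, though control 4 came close (log2 fold change 0.71, edgeR adjusted p = 0.218). The pocket protein gene Rbl1 had 15.5, 18.6 and 28.8 CPM in controls and 40.1, 28.1 and 31.9 CPM after phlebotomy (log2 fold change 0.67, edgeR adjusted p = 0.213), and Rb1 had 92.1, 96.5 and 92.9 CPM in controls and 59.8, 71.7 and 73.9 CPM after phlebotomy (log2 fold change -0.45, edgeR adjusted p = 0.214). Rb1 was below all controls in every phlebotomy library, while Rbl1 overlapped in phlebotomy 2. Cdkn1a, the CDK inhibitor p21, had 997, 766 and 787 CPM in controls and 533, 750 and 547 CPM after phlebotomy, again lower throughout (log2 fold change -0.48, edgeR adjusted p = 0.263). The replication-dependent histone genes (50 of 67 tested) had a median of 0.08, with 31 above 0. Their summed level was 326, 420 and 501 CPM in controls and 558, 433 and 399 CPM after phlebotomy. Near-identical copies make the single values of these histone genes uncertain.

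Reads shared with other genes touch some of the 44. Exons of 13 overlap another annotated gene, and for 9 a gene of over 100 counts lies on the opposite strand. Apart from Ccne2 and Gins2, the 9 include Mcm7, Tk1, Ccna2, Cdc20, Kif20a, Nusap1 and Prc1. For Nusap1, the partner Oip5 held 840 counts against 8847 and had a log2 fold change of 0.74. Annotated processed copies exist for 4 of the 44 (Tyms, Pcna, Ccnb1 and Ccnb2).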

How the data were processed

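For 6 libraries, counts per gene were deposited unscaled, in a filtered copy, and as a signal table of TMM-scaled CPM made by the authors (per the file's name). Per the labels' protocols, total RNA of osteocyte-enriched bone went through Nextera XT, which does not mark strand. In the submitters' processing notes stand the builds mm10 and GRCm38.p3 and the tools limma, edgeR, DESeq2 and STAR (2.5.2a and 2.7.3a), with no role. For the counting step, program and strandedness are not given in the sources used.

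Raw counts were filtered (filterByExpr, minimum count 10), scaled with TMM and tested without covariates by the quasi-likelihood test of edgeR 4.0.16 (robust, R 4.3.3), with Benjamini-Hochberg adjustment over 18838 genes at 0.05. SE were approximated from the F statistic. Levels came from this scaling. They differed from the deposited values by at most 7.28% of the deposited value, or of 1 CPM where that value was lower. A set of 19 rows naming no mouse gene (0.00278% to 0.0284% of counts) was left out. Coordinates and exon lengths are from GENCODE M21 (GRCm38), promoters from RefSeq. Ratios between genes per kilobase use the length of all exons of a gene, and their size depends on that choice. The edgeR step was tested on simulated counts. Alternatives were other scaling, filters, DESeq2 1.42.0, limma 3.58.1 (voom, and trend with pseudocounts of 0.5 and 1), a replicate block, GC and length removal, and each library left out.

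Whether each library is a separate animal is not stated in the labels, and p-values therefore reflect only how these libraries spread. No pair of libraries within a group agreed within sampling noise, and pairs across the groups were not checked. The 44 genes and the lists were chosen with earlier results of these data known. All 44 may be named, and of each other list the 4 genes with the smallest edgeR p. The rule also covers a further gene, which is not reported here. The floor of 3 counts was only converted to CPM for each library and was not applied to levels or tests. Python 3.11.15 with matplotlib 3.10.9 made the figures.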

Additional observations from a re-analysis of the deposited data

How the results depend on the processing

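Over 16 alternatives, the S-phase median log2 fold change ran from 0.30 to 0.56 and the G2/M median from 0.093 to 0.46. Genes above 0 numbered 18 to 19 of 20 and 18 to 24 of 24. Of 703 values for the 44 genes, 683 kept their direction and their side of the threshold, 7 passed the threshold in addition and 13 changed sign. S-phase genes called higher numbered 1 with no filter on low counts (Tyms) and 2 with DESeq2, and 0 to 2 with each library left out. G2/M genes called higher numbered 1 with DESeq2 and 0 to 1 with each library left out. All genes called higher numbered 166 with no filter, 6 with the genes of the deposited filtered table, 75 with DESeq2, 0 with limma-voom and 0 to 356 with a library left out. All genes called lower numbered 411, 14 and 210 with the first 3 of these and 0 to 607 with a library left out. The cause of these differences was not tested.

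Values that changed sign were small, and the range with a library left out is given up to its other end. Without control 1 they were Uhrf1 (-0.15), Cdc20 (-0.11), Cenpa (-0.035), Cenpe (-0.014), Cenpf (-0.096) and Prc1 (-0.0028). Others were Uhrf1 without phlebotomy 2 (-0.012), Cenpa without phlebotomy 1 (-0.0041), Kif23 without control 2 (0.011) and Prc1 without phlebotomy 4 (-0.023). The other ends were 0.36 for Uhrf1, 0.28 for Cdc20, 0.36 for Cenpa, 0.41 for Cenpe and 0.27 for Cenpf (all without control 4), -0.20 for Kif23 (without control 1) and 0.19 for Prc1 (without phlebotomy 2). Prc1 was also at -0.0016 with the deposited filtered genes and at -0.00042 in limma-trend with either pseudocount. List medians with a library left out ran from -0.039 to 0.17 for G1 cyclins and kinases (-0.036 without control 1, -0.039 without phlebotomy 2), from -0.088 (without control 1) to 0.088 for CDK inhibitors and pocket proteins, from -0.31 (without phlebotomy 2) to -0.064 for the E2F, MYB and FOXM1 factors, and from -0.064 (without phlebotomy 1) to 0.23 for histone genes, with -0.034 without control 1.

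The replicate block left 0 of the 44 genes called, with 9 S-phase and 7 G2/M genes at an unadjusted p under 0.05 in edgeR. Deviations of same-numbered libraries had correlations of -0.11, -0.11 and -0.062, and those of the other pairs ran from -0.024 to 0.11. With so few libraries, these values cannot show whether the numbers pair the libraries. Across 18822 genes, the log2 fold change had a Spearman correlation of -0.25 with transcript length and -0.23 with GC content. The part of this trend in single genes was not tested. Depth limits Ung most, with as few as 14 counts in a library.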
